A study of Mus musculus with 8 samples.

Results

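The integrin subunit genes described here were chosen by symbol from a list of 10, and all 10 were found among the 24303 genes of the expression table. They comprise 7 genes for α subunits, Itgae (CD103), Itga1, Itga2, Itga4, Itga7, Itgal and Itgav, and 3 genes for β subunits, Itgb1, Itgb2 and Itgb7. The RNA-seq study cultured CD8 T cells from the spleen of P14 mice, whose T cells carry a transgenic receptor for the GP33 peptide of lymphocytic choriomeningitis virus, to model dysfunction under chronic antigen in vitro. Naïve P14 cells were first activated for 2 days on plates coated with anti-CD3 and anti-CD28. Acute-2d cells then received no GP33 and were kept without peptide to day 19. Acute-7d cells were given GP33 repeatedly until day 7 and rested without it to day 19. T_Dysf cells were given GP33 repeatedly until day 19 and, from day 7 on, TGF-β1 as well. Effector cells were collected on day 7, and the labels do not state whether they received GP33 after the first 2 days. A figure legend of the paper, for a cytometry assay, describes day 7 Effector cells as stimulated for 7 days. By the study's methods the cells were purified by flow cytometry ahead of RNA isolation, with live CD8+ cells kept on day 19. Each of the 4 groups had 2 libraries described as biological replicates, 8 in all, and p-values measure the spread between these few libraries. GP33 after day 7 and TGF-β1 were given together in T_Dysf, so their contributions cannot be told apart, and Effector differs from the other groups in day as well as treatment. Both Effector libraries and the Acute-7d replicate 1 library have a name that starts with RESUB, whose meaning is not stated, and the other 5 do not.

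Integrins are cell surface receptors made of 1 α and 1 β subunit, which bind matrix proteins or counter-receptors on other cells. The αE subunit pairs with β7 to bind E-cadherin on epithelial cells and is a common marker of resident CD8 T cells in epithelia, where TGF-β induces it. The α4 subunit pairs with β7 or β1, αL pairs with β2 as LFA-1, and α1 and α2 pair with β1 to bind collagen.

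Values are normalized counts, which are estimated read counts divided by a size factor for each library. From the step between low values, 1 read was worth 0.863 to 1.12 normalized counts, and the libraries held an estimated 19382508 to 24855698 reads on genes. A floor of 3 reads then lies at 2.59 to 3.35 normalized counts, and floors and counting intervals cover counting error only. Fold changes are on the scale of log2(normalized count + 1), with standard errors and p-values from limma adjusted by Benjamini-Hochberg over all 24303 genes. A gene was called when its adjusted p was under 0.05 and its fold change at least 2. The mean of each of the 10 members over the 8 libraries was at least 50. In cultures measured in bulk, fewer cells with a transcript and less of it per cell cannot be told apart.

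The label of CD8 T cells, which the 4 groups share, was checked by the levels of CD8 T cell markers. The CD8 T cell markers Cd3e, Cd3g, Cd8a and Cd8b1 summed to 42140 and 45846 normalized counts in Effector, 59040 and 54526 in Acute-2d, 50547 and 51355 in Acute-7d, and 109140 and 104289 in T_Dysf. Their sum was thus highest in T_Dysf, where Cd8a measured 35908 and 36163 and Cd3g 37130 and 32348. Cd3e and Cd3g were called higher in T_Dysf in all 3 of its comparisons, by 1.06 to 1.62 log2 units, and Cd8a against Effector (1.29, adjusted p = 0.0443), while Cd8b1 was not called.

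Itgae, encoding the αE subunit of CD103, lies at chr11:73090583-73147446 on the plus strand of mm10. It measured 80.4 and 50.2 normalized counts in Effector, 101 and 100.4 in Acute-2d, 71.4 and 73.7 in Acute-7d, and 40456 and 37825 in T_Dysf. Both T_Dysf libraries stood far above the other 6, which were all low. Itgae was 9.05 ± 0.22 (SE, n = 2 per group) log2 units higher in T_Dysf than in Acute-7d (limma with Benjamini-Hochberg adjustment, adjusted p = 0.000385). The difference was 8.59 from Acute-2d (adjusted p = 0.000222) and 9.24 from Effector (adjusted p = 0.000385). In order of level Itgae ran T_Dysf, Acute-2d, Acute-7d and Effector, and the last 3 did not differ past the threshold in any comparison between them, with adjusted p of 0.781, 0.674 and 0.120. Per kb of transcript, Itgae ranked 141 of 23629 genes with a known length in each T_Dysf library, and between 11670 and 12668 in the other 6.

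One limit on Itgae comes from the gene Haspin, a mitotic kinase gene that lies inside Itgae on the opposite strand (chr11:73135485-73138294). Haspin measured 496 and 784 normalized counts in Effector, 177 and 143 in Acute-2d, 103 and 208 in Acute-7d, and 5370 and 5421 in T_Dysf. It too was highest in both T_Dysf libraries, by 5.20 log2 units over Acute-7d (adjusted p = 0.00554). Whether counting used the strand is not given in the sources used here, so reads of the pair may not be fully separated, and Haspin in particular is uncertain. Of 11 genes with values within 100 kb of Itgae, 2 were called higher in T_Dysf than in Acute-7d, where 2.54% of all genes were. These were Haspin and Camkk1, named after their values were seen.

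Itgb7, the β subunit that joins αE, held 10956 and 10316 normalized counts in Effector, 16412 and 20415 in Acute-2d, 15713 and 16208 in Acute-7d, and 16812 and 16435 in T_Dysf. The T_Dysf libraries lay within the range of Acute-2d, and Effector was the lowest group. Itgb7 in T_Dysf differed from Acute-7d by 0.06 log2 units (adjusted p = 0.849) and from Effector by 0.64 (adjusted p = 0.0315), the latter under the fold threshold. No comparison called it. Itga4, encoding the other α partner of β7, measured 4078 and 3482 in Effector, 5307 and 4352 in Acute-2d, 5010 and 5374 in Acute-7d, and 1101 and 2314 in T_Dysf. Both T_Dysf libraries were below every other library, but they differed from each other by more than those of any other group. Against Acute-7d the change of Itga4 was -1.70 ± 0.37 (adjusted p = 0.0573), against Acute-2d -1.59 (adjusted p = 0.0582) and against Effector -1.24 (adjusted p = 0.0895), and none was called. Itga4 was called lower in all 3 comparisons when genes under 50 normalized counts were left out (adjusted p = 0.00883, 0.00919 and 0.0190), and with limma-voom on genes with a maximum of at least 50 (adjusted p = 0.00634, 0.00672 and 0.0141). Such a filter alone, without limma-voom, called it too, so the gain is not particular to that method. Without T_Dysf replicate 2 it was called as well, at -2.24 from Acute-7d (adjusted p = 0.0103). Cerkl overlaps Itga4 on the opposite strand, at 140 and 124 in T_Dysf and 48.4 to 190 elsewhere. Over 18 alternatives the adjusted p of Itga4 against Acute-7d ran from 0.00634 to 0.200.

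**Figure D1:**
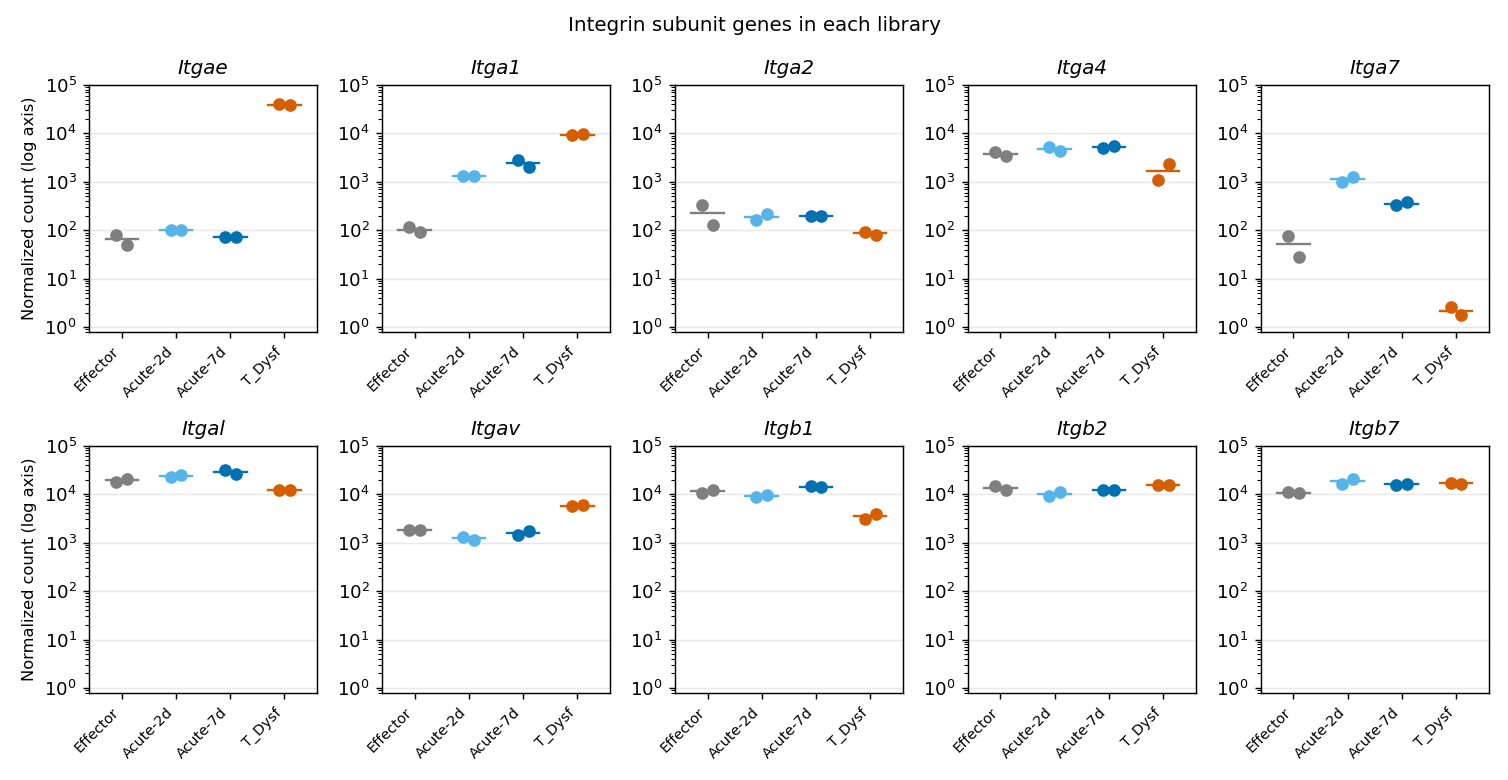
Normalized counts (log axis) of the 10 integrin subunit genes in each library, by group, with points for the 2 libraries and a line for their mean. Itgae stands at 40456 and 37825 in T_Dysf and at 101 or below in the other 6 libraries, while Itga7 falls to 2.59 and 1.78 in T_Dysf.

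Levels divided by transcript length allow the α partners of β7 to be compared. Per kb of the longest transcript, the ratio of Itgae to Itga4 was 0.0501 and 0.0366 in Effector, 0.0484 and 0.0586 in Acute-2d, 0.0362 and 0.0348 in Acute-7d, and 93.3 and 41.5 in T_Dysf. Itga4 was thus the more abundant transcript in 6 libraries and Itgae in the 2 T_Dysf libraries, which differed in Itga4 itself. The sum of Itgae and Itga4 per kb relative to Itgb7 was 1.70 and 1.64 in T_Dysf, against 0.0620 to 0.107 in the other libraries. Hence Itgb7 transcripts outnumbered those of both partners together in every group but T_Dysf.

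Shares within all α transcripts differed in the same way. Over 18 α genes with values, Itgae accounted for 66.2% of the summed level per kb on average in T_Dysf, against 0.265% in Acute-7d, 0.354% in Effector and 0.435% in Acute-2d. Itgal held 77.2%, 75.8% and 77.5% in Effector, Acute-2d and Acute-7d, and 15.0% in T_Dysf. The summed α level per kb averaged 4824 for Effector, 6036 for Acute-2d, 7161 for Acute-7d and 15371 for T_Dysf, so the shift in shares came with a higher total. Among 8 β genes the summed level moved less, from 11877 in Effector to 14268 in Acute-7d, with 12440 in T_Dysf. Itgb7 made up 49.8% of it in T_Dysf, within the 33.4% (Effector) to 50.8% (Acute-2d) of the other groups. Itgb2 made up 41.7% in T_Dysf, above 25.6% (Acute-2d) to 38.1% (Effector) in the others, and Itgb1 7.29%, below 18.2% (Acute-2d) to 26.4% (Acute-7d).

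**Figure D2:**
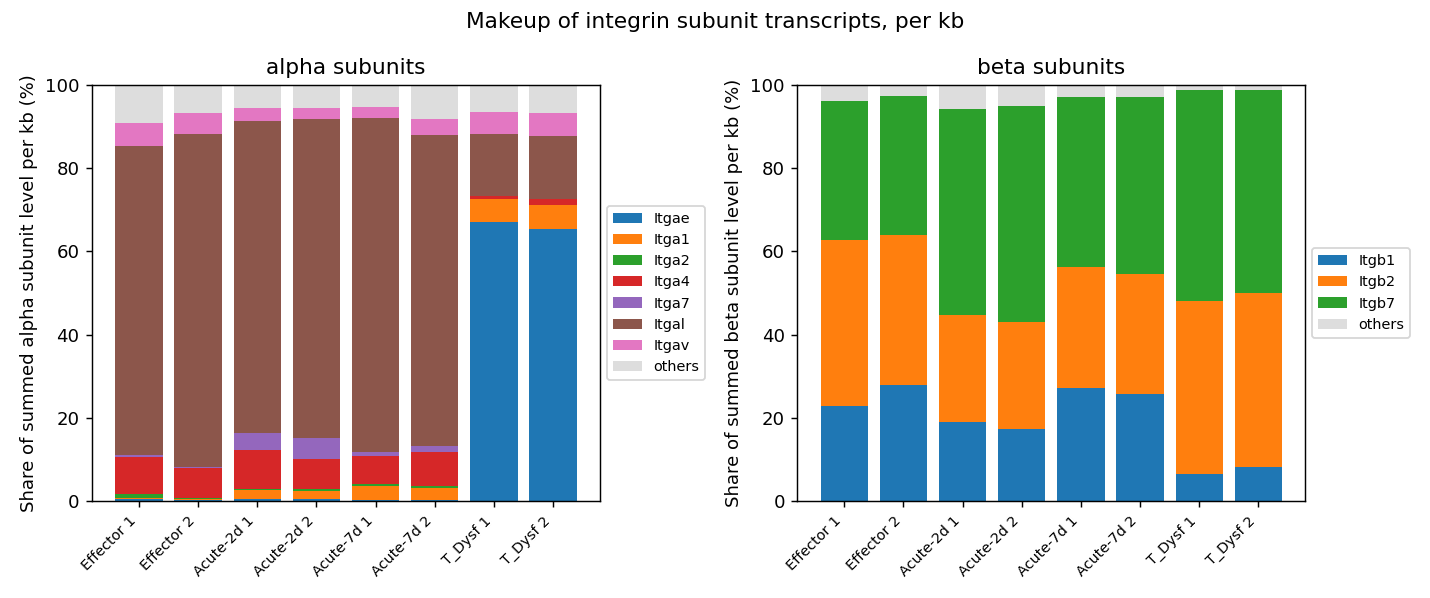
Share (%) of each subunit gene in the summed level per kb of the 18 α genes (left) and the 8 β genes (right), with 1 bar per library and genes outside the 10 in grey. Itgae fills 66.2% of the α bar on average in T_Dysf, where Itgal fills most of it in the other groups.

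Itga1, encoding the α1 subunit of the collagen receptor α1β1, lies at chr13:114953096-115101964 on the minus strand. It measured 117 and 90.5 normalized counts in Effector, 1334 and 1332 in Acute-2d, 2889 and 2065 in Acute-7d, and 9359 and 9508 in T_Dysf. The 4 groups formed separate levels with no overlap, from Effector at the bottom to T_Dysf at the top. Itga1 was higher in T_Dysf than in Acute-7d by 1.95 ± 0.20 log2 units (adjusted p = 0.0103), than in Acute-2d by 2.82 (adjusted p = 0.00371) and than in Effector by 6.51 (adjusted p = 0.000579). It was also lower in Effector than in Acute-7d, by -4.56 (adjusted p = 0.00262), and than in Acute-2d, by -3.68 (adjusted p = 0.00376). The step from Acute-2d to Acute-7d was not called (0.87, adjusted p = 0.417). Without T_Dysf replicate 1 the difference from Acute-7d kept its size, at 1.96, but not its call (adjusted p = 0.0687, in a range of 0.000298 to 0.0687 over the alternatives). A fit of only the 2 groups lost the calls of Itga1 in T_Dysf against Acute-7d (adjusted p = 0.0514) and in Effector against Acute-7d (adjusted p = 0.0642).

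Other genes with values overlap Itga1. Pelo and Gm49395 lie on its strand and Gm10734 on the opposite one, and reads of overlapping exons could have been divided among them. Gm49395 had at most 339 normalized counts in any library and Gm10734 at most 226, against 9508 for Itga1, while Pelo measured 844 and 972 in T_Dysf.

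Itga2, encoding the α2 subunit of another collagen receptor of β1, lies next to Itga1 on chromosome 13, with 20996 bases between the genes. It measured 328 and 129 in Effector, 161 and 216 in Acute-2d, 194 and 199 in Acute-7d, and 94.4 and 81.0 in T_Dysf. T_Dysf held the lowest values and did not overlap the rest, while the other 3 groups overlapped one another. No comparison called Itga2, with -1.16 ± 0.46 against Acute-7d (adjusted p = 0.199), -1.08 against Acute-2d (adjusted p = 0.215) and -1.23 against Effector (adjusted p = 0.147). The Effector libraries differed most, and without Effector replicate 2 Itga2 was called lower in T_Dysf than in Acute-7d (adjusted p = 0.0427), Acute-2d (adjusted p = 0.0420) and Effector (-1.90, adjusted p = 0.0288). Without Effector replicate 1 it was called lower than in Acute-7d (adjusted p = 0.0438) and Acute-2d (adjusted p = 0.0431). Against Acute-7d the adjusted p ran from 0.0427 to 0.439 over the alternatives.

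Itga7, encoding the α7 subunit that pairs with β1 as a laminin receptor, measured 75.8 and 28.1 in Effector, 981 and 1265 in Acute-2d, 339 and 376 in Acute-7d, and 2.59 and 1.78 in T_Dysf. All 4 groups were separate, with Acute-2d highest and T_Dysf near the floor. The T_Dysf values amount to 3 and 2 reads, 5 in all, so the fold is best given as a ratio of reads. Acute-7d exceeded T_Dysf 164-fold (95% exact counting interval 69.7 to 505), Acute-2d 512-fold (219 to 1578) and Effector 24.2-fold (10.1 to 76.1). The fitted differences of Itga7 depend on the pseudocount, and all 3 were called, at adjusted p of 0.00488, 0.00244 and 0.0127 in that order. Effector was also lower than Acute-7d (-2.92 ± 0.49, adjusted p = 0.0273) and than Acute-2d (-4.56, adjusted p = 0.0121). Acute-7d and Acute-2d differed by -1.64, which was not called (adjusted p = 0.563).

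The calls of Itga7 that involve Effector rest on few libraries. The call of T_Dysf against Effector was lost without T_Dysf replicate 1 (adjusted p = 0.0668, in a range of 0.00122 to 0.156). That of Effector against Acute-2d was lost without either Acute-2d library (adjusted p = 0.0579 without replicate 1 and 0.0518 without replicate 2, in a range of 0.000680 to 0.143). That of Effector against Acute-7d was lost when any single library of Acute-2d, Acute-7d or T_Dysf was left out, with adjusted p from 0.0599 to 0.117, in a range of 0.00266 to 0.141 over all alternatives. With a term for the RESUB prefix, the calls of Itga7 were lost in T_Dysf against Effector (adjusted p = 0.156), Effector against Acute-7d (0.102) and Effector against Acute-2d (0.143). A fit of only the 2 groups lost the same 3 (0.108, 0.141 and 0.105). Since both Effector libraries carry that prefix and no T_Dysf or Acute-2d library does, the term rests on the Acute-7d pair alone.

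Itgb1, encoding the β1 subunit common to α1, α2, α4, α7 and αV, lies at chr8:128685654-128733200 on the plus strand. It measured 10650 and 12186 in Effector, 8932 and 9716 in Acute-2d, 14785 and 13938 in Acute-7d, and 3005 and 3919 in T_Dysf. T_Dysf was the lowest group without overlap, and Acute-7d the highest. Itgb1 changed by -2.06 ± 0.15 log2 units from Acute-7d to T_Dysf (adjusted p = 0.00511), by -1.44 from Acute-2d (adjusted p = 0.00889) and by -1.73 from Effector (adjusted p = 0.00627). The call against Effector was lost with the RESUB term (-1.65, adjusted p = 0.109, in a range of 0.000238 to 0.109). A fit of only the 2 groups lost those against Effector (adjusted p = 0.0653) and Acute-2d (adjusted p = 0.0529). No call of Itgb1 separated the other 3 groups. Per kb, Itgb7 exceeded Itgb1 7.95-fold and 5.96-fold in T_Dysf, and 1.20-fold to 2.99-fold in the other 6 libraries.

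The 250 bases before the start of 3 of these genes are given because α1 and α4 each pair with β1, and Itga1 was called higher and Itgb1 lower in T_Dysf. Of the 10 genes, 6 had a promoter entry in the RefSeq table of build GRCm38.p6, while Itgae, Itga7, Itgal and Itgb2 had none. In capitals are matches on either strand to the SMAD box (CAGAC or GTCTG), a core motif of the SMAD factors that act downstream of TGF-β receptors, and to a RUNX motif (TGTGGT or ACCACA). The motifs do not overlap each other in these windows. Of 32851 windows of this length, 42.2% held the SMAD box and 14.0% the RUNX motif.
Itga1, chr13:115101965-115102214, minus strand: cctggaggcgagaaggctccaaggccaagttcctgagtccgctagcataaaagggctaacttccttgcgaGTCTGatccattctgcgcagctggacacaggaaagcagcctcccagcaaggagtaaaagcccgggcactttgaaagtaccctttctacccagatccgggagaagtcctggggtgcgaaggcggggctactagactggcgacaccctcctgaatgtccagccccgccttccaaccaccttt
Itga4, chr2:79255176-79255425, plus strand: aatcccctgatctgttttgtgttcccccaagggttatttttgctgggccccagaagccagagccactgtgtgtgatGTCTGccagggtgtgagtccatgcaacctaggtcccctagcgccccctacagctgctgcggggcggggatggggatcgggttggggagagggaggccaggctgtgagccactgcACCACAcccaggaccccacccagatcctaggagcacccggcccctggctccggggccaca
Itgb1, chr8:128685404-128685653, plus strand: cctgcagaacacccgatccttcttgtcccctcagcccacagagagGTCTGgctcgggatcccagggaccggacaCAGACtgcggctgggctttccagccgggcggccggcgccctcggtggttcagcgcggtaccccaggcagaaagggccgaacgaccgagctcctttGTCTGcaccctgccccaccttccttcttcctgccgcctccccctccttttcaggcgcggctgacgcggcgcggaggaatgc
The window of Itga1 held 1 SMAD box, that of Itga4 held 1 SMAD box and 1 RUNX motif, and that of Itgb1 held 3 SMAD boxes. Of all 6 windows 5 held a SMAD box and 1 a RUNX motif, and that of Itgav, which was called higher in T_Dysf as well, held neither. Those of Itga2 and Itgb7, which no comparison called, held 3 and 2 SMAD boxes. A match is a description of the letters and not a bound site.

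Itgav encodes αV, which pairs with several β subunits and includes receptors that activate latent TGF-β. It measured 1846 and 1813 in Effector, 1334 and 1150 in Acute-2d, 1448 and 1756 in Acute-7d, and 5768 and 5881 in T_Dysf. The T_Dysf libraries were close to each other and above all others, which lay within a narrow range. Itgav was higher in T_Dysf by 1.87 ± 0.12 log2 units than in Acute-7d (adjusted p = 0.00392), by 2.23 than in Acute-2d (adjusted p = 0.00194) and by 1.67 than in Effector (adjusted p = 0.00397). No other comparison called it. Gm13684 and Dnmt3l-ps1 lie on the opposite strand within the span of Itgav, so reads of overlapping exons may not be fully separated. Gm13684 measured 105 and 81.4 in T_Dysf and 12.8 to 34.8 elsewhere, called higher against Effector alone (adjusted p = 0.0351), and Dnmt3l-ps1 at most 17.9 in any library.

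Itgal encodes αL, which joins β2 in LFA-1, the receptor for ICAM proteins at the T cell synapse. It measured 18235 and 20689 in Effector, 22803 and 24991 in Acute-2d, 32031 and 26076 in Acute-7d, and 12151 and 11896 in T_Dysf. T_Dysf was lowest without overlap. Itgal changed by -1.27 ± 0.14 from Acute-7d to T_Dysf (adjusted p = 0.0127), which was called, while the differences of -0.99 from Acute-2d (adjusted p = 0.0174) and -0.69 from Effector (adjusted p = 0.0366) were under the fold threshold. The call against Acute-7d was lost without Acute-7d replicate 1 (-1.12, adjusted p = 0.0570), without T_Dysf replicate 1 (adjusted p = 0.0865), without T_Dysf replicate 2 (adjusted p = 0.0505), with the RESUB term (adjusted p = 0.0584) and in a fit of only the 2 groups (adjusted p = 0.0541), in a range of 0.000653 to 0.0865. With libraries set to equal 75th percentiles, the difference from Acute-2d was called as well (-1.11, adjusted p = 0.0106).

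Itgb2, encoding the β2 partner of αL, measured 14548 and 12366 in Effector, 9366 and 11157 in Acute-2d, 12448 and 12139 in Acute-7d, and 15342 and 15496 in T_Dysf. T_Dysf was the highest group by a small margin, and no comparison called Itgb2. Its largest difference in T_Dysf was 0.59 ± 0.12, from Acute-2d (adjusted p = 0.0467). The ratio of Itgal to Itgb2 per kb was 0.450 and 0.437 in T_Dysf, against 0.713 and 0.952 in Effector, 1.38 and 1.27 in Acute-2d and 1.46 and 1.22 in Acute-7d.

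**Figure D3:**
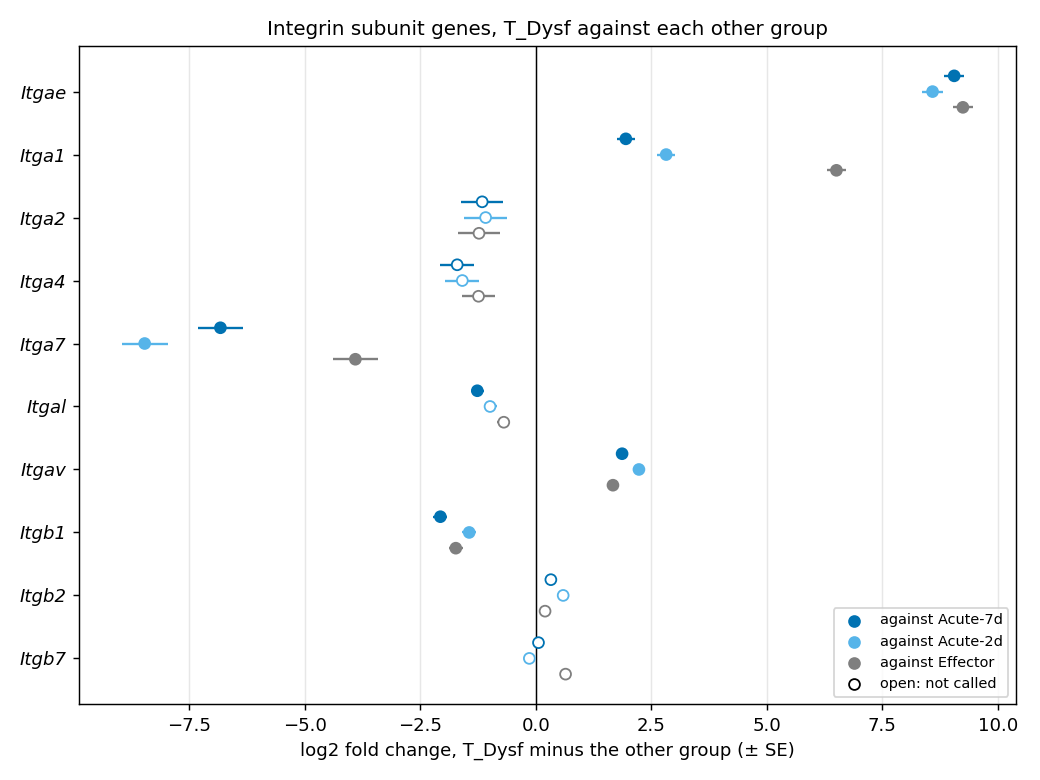
Log2 fold change ± SE of the 10 integrin subunit genes in T_Dysf against each other group (n = 2 libraries per group), with filled points for called genes. Itgae lies 8.59 to 9.24 units to the right and Itga7 to the left in all 3 comparisons, and Itgb7 stays within 0.64 units of 0.

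Counted together, 5 of the 10 members (Itgae, Itga1, Itga7, Itgav and Itgb1) were called in all 3 comparisons of T_Dysf, 1 (Itgal) in 1 of them, and 4 in none. Of all genes 2.75% were called in all 3, 7.86% in 1 and 86.4% in none, and of genes with a mean of at least 50 4.14%, 11.3% and 80.3%. These comparisons share the T_Dysf libraries. Against Acute-7d, 3 members were called higher and 3 lower, where 2.54% and 3.03% of all genes were. Against Acute-2d, 3 were higher and 2 lower, where 3.14% and 4.21% of all genes were. Against Effector, 3 were higher and 2 lower, where 4.47% and 4.75% were. Since every member averaged at least 50 normalized counts, the shares in a fit of the 12028 genes with such a mean are closer in level. They were 5.92% and 6.36%, 6.29% and 7.82%, and 8.29% and 10.2% in the same order, beside 3 and 4, 3 and 3, and 3 and 3 members, with Itga4 added. The shares of all genes changed when single libraries were left out, and their sum was lowest each time without T_Dysf replicate 1. Then 0.831% of all genes were higher and 0.905% lower than in Acute-7d, beside 2 and 2 members, 1.19% and 1.51% than in Acute-2d, beside 3 and 2, and 1.29% and 1.12% than in Effector, beside 3 and 1. The balance moved as well. Against Effector it turned towards lower genes without T_Dysf replicate 2. Equal 75th percentiles changed it little there, from 1086 higher and 1155 lower to 1081 and 1105. The 617 higher and 736 lower genes against Acute-7d became 484 and 827 with equal 75th percentiles and 450 and 1084 without T_Dysf replicate 2, and the 764 and 1023 against Acute-2d became 652 and 1193, and 585 and 1282. Because calls fell on both sides, the median log2 fold change of the members stayed moderate, at -0.55, -0.56 and -0.25, beside 0 for all genes in each. Of the 30 steps between neighbouring groups in the order of a member's level, 7 were called (23.3%). Over all genes 2.11% of such steps were called, and 3.13% over those with a mean of at least 50. Fits of only the 2 groups compared, with fewer libraries for the spread, lost 8 of the 20 calls of members over the 6 comparisons, at adjusted p of 0.0514 to 0.141 (3 of Itga7, 2 of Itga1, 2 of Itgb1 and 1 of Itgal), while all 20 held under both other scalings.

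Comparisons without T_Dysf moved fewer members. Acute-7d against Acute-2d compares GP33 until day 7 with no GP33, both at day 19, and the time without stimulation differs as well. There limma called 0 of 10 members, 1 (Itga7) at an unadjusted p under 0.05 with the same fold, which 3.74% of all genes passed, and limma-voom on genes with a maximum of at least 50 called 0. By the adjusted call 0.0782% of all genes were higher and 0.0905% lower. Effector against Acute-7d called 0 members higher and 2 lower (Itga1 and Itga7), with 4.18% of all genes higher and 3.88% lower. Effector against Acute-2d called the same 2 lower and 0 higher, with 4.31% of all genes higher and 4.48% lower. With equal 75th percentiles, the calls over all genes against Acute-7d went from 1016 higher and 942 lower to 813 and 1184, those against Acute-2d from 1047 and 1088 to 787 and 1410, and the median of all genes in the latter moved by -0.11. The 19 higher and 22 lower genes of Acute-7d against Acute-2d were not a stable count. They became 1 and 0 with either filter at 50, 1 and 2 with limma-voom on such genes, 3 and 1 with a pseudocount of 10, 6 and 2 with quantile normalization, 57 and 90 in a fit of only the 2 groups, 133 and 35 without Acute-7d replicate 1 or with the RESUB term, 27 and 110 without Acute-2d replicate 1, and 28 and 348 without Acute-2d replicate 2.

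Of the remaining 16 integrin subunit genes, 8 averaged at least 50 normalized counts. Of the 16, 1 was called higher and 1 lower in T_Dysf than in Acute-7d (2.54% and 3.03% of all genes), 1 and 2 against Acute-2d (3.14% and 4.21%), and 3 and 2 against Effector (4.47% and 4.75%). Itgb3, whose product pairs with αV, was called lower in all 3. It measured 681 and 716 in T_Dysf against 1628 to 4063 in the other libraries, and changed by -1.70 ± 0.22 from Acute-7d (adjusted p = 0.0181). Itgav and Itgb3 thus moved in opposite directions. Itgax (CD11c, a partner of β2) measured 3306 and 3212 in T_Dysf and 296 to 1107 elsewhere, and was called higher against Acute-2d (3.26, adjusted p = 0.0169) and Effector (2.88, adjusted p = 0.0200) but not Acute-7d (1.92, adjusted p = 0.0711). Itga5, encoding the fibronectin receptor subunit α5, was called lower against Acute-2d (-1.87, adjusted p = 0.00647) and Effector (-1.48, adjusted p = 0.0106). Itga10, for another collagen-binding α subunit, was called higher against Effector alone (1.26, adjusted p = 0.0421). Itgb4, with a mean under 50 and named after its values were seen, was called higher against Acute-7d and Effector, at 115 and 98.7 in T_Dysf and 29.1 or below in the other libraries. Itgb8 was at 0 in all libraries. Left-out libraries ended several of these calls. That of Itgb3 against Acute-7d was lost without either Acute-7d library (adjusted p = 0.0906 and 0.0818) or either T_Dysf library (0.106 and 0.0580), and its call against Effector without either T_Dysf library (0.0900 and 0.0568). The call of Itgax against Acute-2d was lost without either Acute-2d library (0.0889 and 0.0626) or T_Dysf library (0.0969 and 0.0622), and against Effector without either T_Dysf library (0.104 and 0.0713). Itga5 against Effector was lost without T_Dysf replicate 1 (0.0595), and Itga10 when any 1 library was left out (0.0615 to 0.168), with a pseudocount of 10 (0.0533) and with equal 75th percentiles (0.0540), so that 6 of 18 alternatives kept it. Itgb4 against Acute-7d was lost without either library of either group (0.0568 to 0.108), and against Effector without T_Dysf replicate 1 (0.0944), T_Dysf replicate 2 (0.0578) or Effector replicate 2 (0.0505). With the RESUB term, all 5 calls of these genes against Effector were lost (0.106 to 0.261) and both against Acute-7d (Itgb3 0.0907 and Itgb4 0.0897), and a fit of only the 2 groups lost all 5 against Effector (0.0846 to 0.143).

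Of 12 genes for integrin ligands, 10 had values, and Madcam1 and Vtn were not analysed here. Of the 10, T_Dysf had 0 called higher and 1 lower against Acute-7d (2.54% and 3.03% of all genes), 0 and 2 against Acute-2d (3.14% and 4.21%), and 2 and 1 against Effector (4.47% and 4.75%). Cdh1, encoding E-cadherin, the ligand of CD103, measured 103 and 13.0 in Effector, 819 and 1162 in Acute-2d, 1920 and 1146 in Acute-7d, and 12261 and 13187 in T_Dysf. The T_Dysf libraries were far above the others, and the Effector libraries lay far apart from each other in ratio. Cdh1 was called against Effector (8.38 ± 0.97, adjusted p = 0.0107), but not against Acute-7d (3.10, adjusted p = 0.129) or Acute-2d (3.70, adjusted p = 0.0804). Icam2, a ligand of LFA-1, was lower in all 3 comparisons, at 119 and 92.5 in T_Dysf against 368 to 408 elsewhere (-1.92 ± 0.13 from Acute-7d, adjusted p = 0.00441). Spp1, encoding osteopontin, was called higher against Effector (2.15, adjusted p = 0.00369), and Lama5, a laminin chain gene, lower against Acute-2d (-1.53, adjusted p = 0.0310). The call of Cdh1 was lost without T_Dysf replicate 1 (adjusted p = 0.0666), and that of Lama5 without any library of Acute-2d, Acute-7d or T_Dysf (0.0626 to 0.124). Those of Icam2 and Spp1 held without any single library. With the RESUB term the calls against Effector of Icam2 (0.0727), Spp1 (0.0602) and Cdh1 (0.126) were lost, and that of Lama5 against Acute-2d (0.0627). A fit of only the 2 groups lost those of Icam2 (0.0555) and Cdh1 (0.0846) against Effector.

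Of 30 genes for integrin activation and adaptor proteins, T_Dysf had 2 called higher and 1 lower against Acute-7d (2.54% and 3.03% of all genes), 1 and 0 against Acute-2d (3.14% and 4.21%), and 2 and 1 against Effector (4.47% and 4.75%). An adjusted p under 0.05 at any fold was found for 5, 5 and 10 of the 30, and for 9.21%, 11.9% and 15.6% of all genes. Of the 30, 25 had a mean of at least 50, and of all genes with such a mean 15.3%, 19.5% and 26.3% passed. The medians of 0.10, 0.10 and 0.22 stood beside 0 for all genes. Tln2, for talin 2, which links β tails to actin, was called higher in all 3, at 110 and 126 in T_Dysf against 16.9 to 43.9 elsewhere (1.88 ± 0.23 from Acute-7d, adjusted p = 0.0163). Rasgrp2, for the exchange factor that turns on Rap1 ahead of integrin activation, was lower than in Acute-7d (-1.06, adjusted p = 0.00945). Dok1, whose product can bind β tails, was higher than in Acute-7d (1.31, adjusted p = 0.0372). Against Effector, Ptk2b, for the kinase Pyk2, was higher (2.43, adjusted p = 0.0163) and Vcl, for vinculin, lower (-2.61, adjusted p = 0.0200). Tln2 kept its call against Acute-2d without any single library, but lost that against Acute-7d without either library of either group (0.0540 to 0.0820) and that against Effector likewise (0.0591 to 0.0904). Rasgrp2 lost its call without Acute-7d replicate 1 (0.0563) or T_Dysf replicate 1 (0.0615), and Dok1 without any library but Acute-7d replicate 2 (0.0638 to 0.162). Ptk2b lost it without either T_Dysf library (0.0899 and 0.0607), and Vcl without T_Dysf replicate 1 (0.0827), Effector replicate 1 (0.0560) or Effector replicate 2 (0.0874). With the RESUB term all 3 calls against Acute-7d (0.0568 to 0.0851) and all 3 against Effector (0.178 to 0.273) were lost. A fit of only the 2 groups lost Tln2 (0.0639) and Dok1 (0.111) against Acute-7d and all 3 against Effector (0.0789 to 0.114), and a replicate block lost Dok1 (0.0552).

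**Figure D4:**
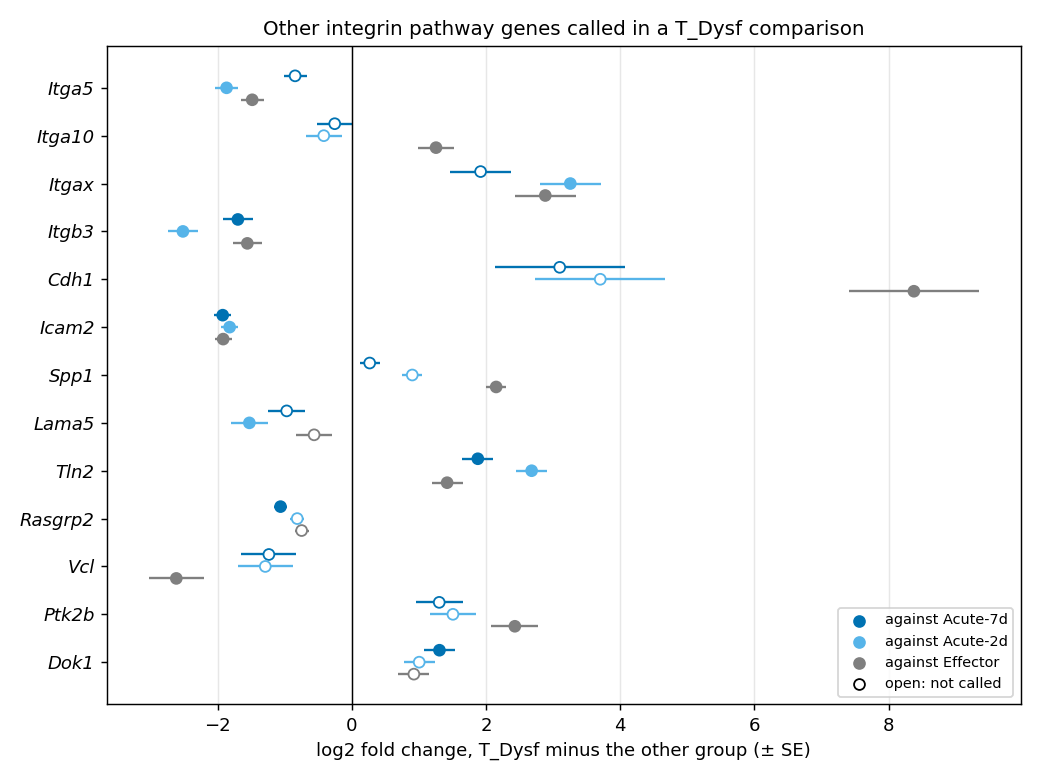
Log2 fold change ± SE of 13 genes for other integrin subunits, ligands and adaptors in T_Dysf against each other group (n = 2 libraries per group), with filled points for called genes. Itgb3 and Icam2 lie to the left and Tln2 to the right in all 3 comparisons, and Cdh1 has the widest error bars.

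The 5 genes most like Itgae over the 8 libraries, by Pearson r of log2 values among 12027 other genes with a mean of at least 50, were Tgfb3 (0.999), Gja5 (0.995), Zfp983 (0.992), Adgrg1 (0.992) and Vipr2 (0.991). These correlations describe 8 libraries in which T_Dysf stood apart from 3 groups, and 186 genes had an r of at least 0.95. Each library outside T_Dysf held under 50 normalized counts of Tgfb3, Gja5 and Vipr2, so they passed the filter through T_Dysf alone. Their likeness to Itgae is thus partly set by that filter. Tgfb3, for the cytokine TGF-β3, measured 2756 and 3228 in T_Dysf and 14.0 to 27.4 elsewhere. Gja5, for connexin 40, measured 3585 and 4001 in T_Dysf and 1.06 to 3.24 elsewhere, which is about 1 to 3 reads. Outside T_Dysf, Gja5 thus did not pass the floor, while Tgfb3 was above it. Adgrg1, for the receptor GPR56, measured 9957 and 10600 in T_Dysf and 28.1 to 107 elsewhere. Vipr2, for a receptor of vasoactive intestinal peptide, measured 2508 and 2813 against 12.0 to 44.2, and the zinc finger gene Zfp983 443 and 399 against 176 to 207. Zfp983 followed the pattern of Itgae over a far smaller range than the other 4. The Spearman rho of these genes with Itgae was 0.952, 0.500, 0.905, 0.929 and 0.881 in the order first given, since the low groups are ranked too.

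**Figure D5:**
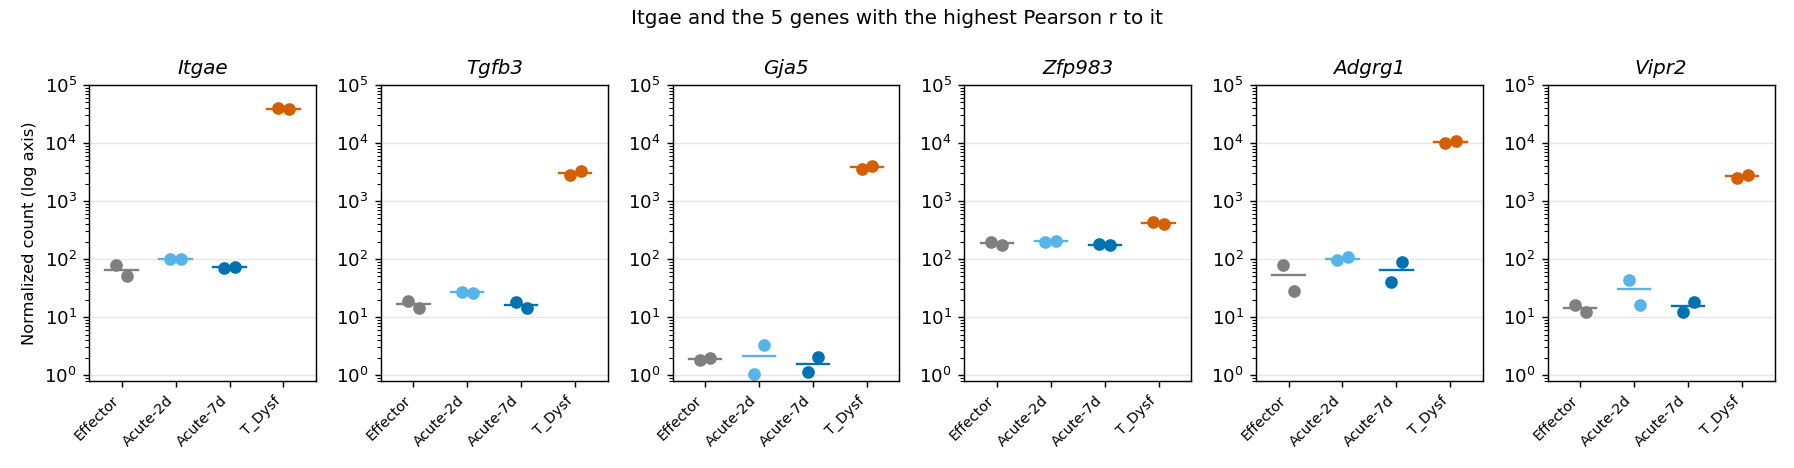
Normalized counts (log axis) of Itgae and the 5 genes with the highest Pearson r to it in each library, by group, with points for the 2 libraries and a line for their mean. All 6 are highest in T_Dysf, and Zfp983 spans the smallest range, with 399 and 443 in T_Dysf and 176 to 207 elsewhere.

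The CD4 T cell markers summed to 1451 and 1141 in Effector, 1058 and 1639 in Acute-2d, 1103 and 1282 in Acute-7d and 1083 and 1409 in T_Dysf, nearly all from Zbtb7b, while Cd4 itself did not exceed 13.0. Cd40lg of this list was called lower in T_Dysf, at 0 and 0, than in Effector, at 11.9 and 13.0 (adjusted p = 0.00979). Effector was also called higher for Cd40lg than Acute-2d, at 1.05 and 3.24 (adjusted p = 0.0322), and lower for Foxp3, at 6.72 and 2.15, than Acute-7d, at 49.5 and 45.2 (adjusted p = 0.0256). The NK cell markers, led by Klrb1c, summed to 568 and 256, 451 and 419, 1038 and 1498, and 249 and 551 in the same order, with Klra4 under the floor in all libraries. Ncr1 of this list was called lower in T_Dysf, at 2.59 and 1.78 or 3 and 2 reads, than in Acute-7d, at 30.1 and 105 (adjusted p = 0.0343). B cell markers, led by Cd79a, stayed between 25.7 and 53.2 in sum. The macrophage and monocyte markers, led by Lyz2, summed to between 223 and 493, and T_Dysf lay inside that range at 314 and 281. Csf1r, a defining marker of this list, was called higher in T_Dysf than in Effector (1.43, adjusted p = 0.0406), from a mean of 6.56 to 19.5, a level that Acute-2d shared at 19.5. It was called lower in Effector than in Acute-2d too (adjusted p = 0.0410). Of the dendritic cell markers, 3 of 4 had values and summed to between 102 and 546, nearly all Xcr1, with 391 and 303 in T_Dysf. Clec9a and Siglech did not exceed the floor, and Flt3 was not analysed here. Stromal and endothelial markers, led by Pecam1, summed to between 1076 and 2027 and were lowest in T_Dysf (1076 and 1146), with Col3a1 at most 2.74. The 4 megakaryocyte and platelet markers had no values and were not analysed here. Apart from Csf1r against Effector, none of these markers of other cell types was called higher in T_Dysf in any of its 3 comparisons. Live CD8+ cells had been sorted on day 19, and how many other cells, if any, remained and their part in the comparisons were not tested.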

How the data were processed

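Per the labels, poly(A) RNA of 8 libraries was sequenced, and the submitters' processing notes name STAR, DESeq2 and the build mm10, with no versions. The deposited signal values are normalized counts that the authors made by quantifying reads to RefSeq transcripts in Partek Flow and dividing by DESeq2 size factors. Between 54.4% and 76.6% of values under 1000 reads came out as whole reads (within 0.03), so counts were not recovered and count tests were not run. Values were transformed as log2(normalized count + 1) and fitted with limma 3.58.1 (lmFit, eBayes with trend, two-sided) in R 4.3.3, all 8 libraries and 24303 genes in 1 fit with 4 group means, with Benjamini-Hochberg adjustment. The script was tested on simulated data. Lengths and positions came from GENCODE M21 on the same build, which matched 23629 symbols, and levels per kb used the longest transcript. Summaries used Python 3.11.15, numpy 2.4.6, pandas 2.3.3, scipy 1.17.1 and matplotlib 3.10.9.

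Named genes were all 10 members, then of the other integrin subunits, ligands and adaptors each gene called in a T_Dysf comparison with a mean of at least 50 (at most 8 per list and comparison), the 5 genes with the highest Pearson r to Itgae, and marker lists as sums. The members and lists were chosen with earlier results of these data known. Alternatives were pseudocounts of 0.1 and 10, filters at a mean or maximum of 50, equal 75th percentiles, quantile normalization, fits of only the 2 groups compared, a replicate block, a term for the RESUB prefix, limma-voom on genes with a maximum of at least 50, unadjusted p, leaving out each library, exon union lengths and Spearman rho. Protein sequences of the members were not analysed here.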

Additional observations from a re-analysis of the deposited data

How the results depend on the processing

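The 20 calls of members over the 6 comparisons were recomputed under 18 alternatives. Of these 360 values 334 were still called, 26 lost the call and 0 reversed. All 20 held with either pseudocount, either filter, both scalings, limma-voom with a filter, and the replicate block. Leaving out 1 library, whose partner is then assumed to vary like the other groups, kept 147 of 160. Calls that an alternative added (Itga4, Itga2, Itgal) stand with those genes. Against 5 members called in T_Dysf against Effector, fits of only the 2 groups called 3, as did the RESUB term. For Effector against Acute-7d, where 2 were called, these gave 0 and 1, and leaving out 1 library gave 1 to 2. For Effector against Acute-2d, also with 2, they gave 1 and 1, and leaving out 1 library 1 to 2. A fit of 2 groups has fewer libraries to estimate the spread, and the cause of the other losses was not tested. Acute-7d against Acute-2d had 1 member at an unadjusted p and 0 otherwise. The share of Itgae in the α level per kb in T_Dysf was 69.0% with exon union lengths beside 66.2%, and its mean ratio to Itga4 81.0 beside 67.4 (SD 36.6). None of the 5 genes most like Itgae was among the 11 that tied for the highest Spearman rho (0 shared), because rho also ranks the low libraries. With a replicate block, members called stayed at 6 for T_Dysf against Acute-7d, 5 against Acute-2d, 5 against Effector, 0 for Acute-7d against Acute-2d, and 2 and 2 for Effector. Differences between replicates correlated at -0.20 to 0.20 between groups, so no strong effect shared by replicate number was seen. These values cannot show whether libraries of the same number had a common origin. Depth limits Itga7 in T_Dysf, with 5 reads. Calls over all genes moved as well. Leaving out 1 library took the 1353 of T_Dysf against Acute-7d to between 422 and 1534, the 1787 against Acute-2d to between 656 and 1867, and the 2241 against Effector to between 585 and 2484. It took the 1958 of Effector against Acute-7d to between 378 and 2156, the 2135 of Effector against Acute-2d to between 553 and 2363, and the 41 of Acute-7d against Acute-2d to between 61 and 376. The RESUB term left 541 for T_Dysf against Acute-7d and 386 against Effector, and fits of only the 2 groups left 155 for Effector against Acute-7d and 235 against Acute-2d.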
